A study of Mus musculus with 64 samples.

Results

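The 421 genomic sites described here held some of the strongest β-catenin peaks in SOX2-ON cells. They fell outside the strongest peaks, or had no peak, in all but at most 1 list of the other conditions. Folds overlapped between conditions at some of them. They were chosen by their β-catenin peaks. From each of 12 β-catenin lists the peaks of highest fold enrichment were kept, as many as the shortest list held, and overlapping peaks were joined, which gave 12601 sites. A site became a member when all 3 SOX2-ON lists held it and at most 1 of the 9 other lists did, which 3.34% of all sites met. β-catenin itself is therefore only described at these sites, with no test.

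The series measured chromatin binding by ChIP–seq in mouse HM1 embryonic stem cells (ESCs) and their derivatives, to ask how the level of SOX2 relates to where β-catenin and its TCF/LEF partners bind. Chromatin was immunoprecipitated for 5 proteins: β-catenin, SOX2, LEF1, TCF7L1 and TCF7L2. The labels call the last of these TCF4, and TCF7L1 TCF3. Each was taken from 4 conditions with 3 replicates, which gave 60 peak lists, and 4 input samples had no list. Naive ESCs were wild-type cells held in 2i medium, which contains the GSK3 inhibitor CHIR99021 and the MEK inhibitor PD0325901. Caudal epiblast-like cells (CEpiLCs) were wild-type cells taken through bFGF with the porcupine inhibitor LGK974 and then CHIR99021, collected at 72 h. The HM1 TetON line, with rtTA expressed from Rosa26, was both the wild-type control and the parent of the SOX2 TetON line (Sox2-/-). SOX2-ON and SOX2-OFF cells came from the SOX2 TetON line, in which the endogenous gene was ablated and a doxycycline-inducible Sox2 transgene was placed at Hprt. They followed the CEpiLC regimen, and only the SOX2-ON cells stayed in doxycycline, at 1 µg/ml, while SOX2-OFF cells lost it during differentiation. All groups therefore received CHIR99021. SOX2-ON and SOX2-OFF share 1 engineered clone that neither wild-type condition carries, so that clone and transgene cannot be separated from SOX2 level in a comparison of SOX2-ON with CEpiLCs or naive ESCs. Stock ESCs had been grown on inactivated mouse fibroblasts before differentiation. In bulk chromatin, more cells bound and stronger binding per cell cannot be told apart.

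β-catenin does not contact DNA itself. It accumulates when WNT signalling or CHIR99021 blocks GSK3, enters the nucleus and is held on chromatin by the TCF/LEF proteins, among which TCF7L1 is best known as a repressor in ESCs and LEF1 as an activator. TCF/LEF and SOX proteins both bind DNA through a high mobility group box and recognise related short sequences. SOX2 maintains pluripotency in ESCs and neural identity later in development, and it falls as caudal epiblast cells move towards mesoderm.

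The sequences of members show what lay under these peaks. The 201 bases around the SOX2-ON β-catenin summit of 8 members are printed 5′ to 3′ on the forward strand of mm10, with the SOX letters (CATTGT or CTTTGT) and the TCF letters (CTTTGAA or CTTTGAT) in capitals on whichever strand they were found. The first 4 were chosen as the strongest sites for β-catenin or for SOX2. Pax9, at chr12:56887448-56887648, and Fgfbp3, at chr19:36910625-36910825, had the highest β-catenin folds. Plxnd1, at chr6:116012063-116012263, and Cd180, at chr13:102600122-102600322, were among the sites of highest SOX2 fold that few other lists held.
Pax9: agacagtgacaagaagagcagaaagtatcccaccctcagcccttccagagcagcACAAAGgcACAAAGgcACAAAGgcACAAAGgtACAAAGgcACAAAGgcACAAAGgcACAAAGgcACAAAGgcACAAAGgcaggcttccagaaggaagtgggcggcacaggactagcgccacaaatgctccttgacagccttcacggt
Fgfbp3: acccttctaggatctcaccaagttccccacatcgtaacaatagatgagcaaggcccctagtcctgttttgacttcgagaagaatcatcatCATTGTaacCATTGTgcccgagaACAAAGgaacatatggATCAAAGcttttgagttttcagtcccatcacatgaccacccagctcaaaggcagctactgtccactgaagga
Plxnd1: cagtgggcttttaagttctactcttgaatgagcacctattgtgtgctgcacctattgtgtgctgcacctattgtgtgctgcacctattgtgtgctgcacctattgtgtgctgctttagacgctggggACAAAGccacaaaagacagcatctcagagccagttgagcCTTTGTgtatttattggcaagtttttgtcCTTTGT
Cd180: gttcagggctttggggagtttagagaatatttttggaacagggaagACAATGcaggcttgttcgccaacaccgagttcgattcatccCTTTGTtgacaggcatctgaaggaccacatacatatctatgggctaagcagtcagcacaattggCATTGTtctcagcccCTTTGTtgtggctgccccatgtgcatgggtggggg

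The other 4 lie near genes with a known role in the embryo or in WNT signalling. They are Kdr, at chr5:75942186-75942386, Nkd1, at chr8:88512390-88512590, Sox3, at chrX:60820973-60821173, and Sall4, at chr2:168840939-168841139. Kdr, Nkd1 and Sox3 hold both SOX and TCF letters, and Sall4 holds neither.
Kdr: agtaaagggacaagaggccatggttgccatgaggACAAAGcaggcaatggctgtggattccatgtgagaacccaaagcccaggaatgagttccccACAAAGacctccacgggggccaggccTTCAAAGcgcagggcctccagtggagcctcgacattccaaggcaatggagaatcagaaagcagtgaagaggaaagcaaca
Nkd1: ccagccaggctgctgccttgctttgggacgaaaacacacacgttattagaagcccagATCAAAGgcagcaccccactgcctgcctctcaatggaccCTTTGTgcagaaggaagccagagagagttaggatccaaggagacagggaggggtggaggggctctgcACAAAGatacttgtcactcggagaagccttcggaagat
Sox3: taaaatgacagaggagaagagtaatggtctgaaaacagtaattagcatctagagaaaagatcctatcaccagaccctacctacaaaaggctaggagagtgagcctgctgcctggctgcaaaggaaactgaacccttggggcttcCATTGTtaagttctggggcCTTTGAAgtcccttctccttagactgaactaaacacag
Sall4: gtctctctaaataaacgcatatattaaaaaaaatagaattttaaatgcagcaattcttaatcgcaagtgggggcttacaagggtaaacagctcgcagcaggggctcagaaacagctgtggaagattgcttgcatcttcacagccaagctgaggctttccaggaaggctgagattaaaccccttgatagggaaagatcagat

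The Pax9 window holds 10 copies of ACAAAG, the reverse complement of CTTTGT, at a constant step of 8 bp over 72 bp. No other of the 12601 sites held more than 8 matches to the SOX letters in its window, and no other member held more than 5. The Fgfbp3 window holds 3 SOX matches and 1 TCF match close together, whereas Cd180 holds 4 SOX matches spread across the window. At Plxnd1 the 16-base unit GCACCTATTGTGTGCT is repeated 5.125 times over 82 bp beside 3 SOX matches that lie outside the array. The repeated unit contains ATTGT but not either SOX hexamer.

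SOX letters were common across the members. Within 100 bp of the summit, 312 of 421 members (74.1%) held CATTGT or CTTTGT on either strand, against 44.8% of all β-catenin sites and 28.7% of windows placed 5000 bp from the members. The share was 70.5% at the 410 sites bound in both high-SOX2 conditions, meaning 5 or 6 of the lists from naive ESCs or SOX2-ON cells and at most 1 of the 6 others. It was 51.5% at 899 naive ESC-specific sites, 28.0% at 410 CEpiLC-specific sites and 21.1% at 123 SOX2-OFF-specific sites, each defined by the same rule as the members. At least 2 SOX matches were present at 168 members (39.9% against 14.2% of all sites), and at least 3 at 59 (14.0% against 3.63%).

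TCF letters, in contrast, were about as frequent as over all β-catenin sites. They were found at 196 members (46.6% against 43.5%), below the 72.3% of the 332 sites held by all 12 lists. Within 50 bp of the summit the members' share was instead 2.75 points lower than that of all sites (−2.75). In windows 5000 bp from the members the share was 13.3%. Both kinds of letters stood together at 138 members (32.8% against 16.9%), and SOX letters without TCF letters at 174 (41.3% against 27.9%). TCF letters without SOX letters were at 58 (13.8% against 26.6%), and neither at 51 (12.1% against 28.6%). The SOX letters CTTTGT and the TCF letters share the core CTTTG but differ in the base that follows. The SOX letters CATTGT lack that core, so that 1 stretch on 1 strand is never counted as both.

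**Figure D1:**
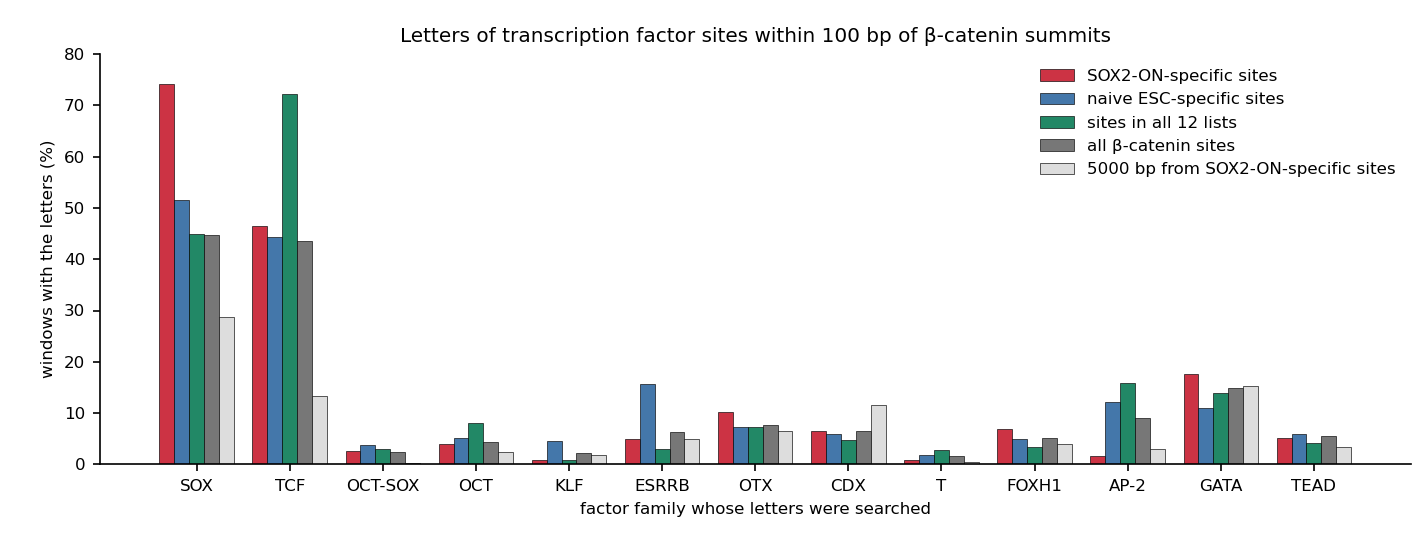
Share of sites (percent, y axis) holding the letters of 13 recognition sequences within 100 bp of the summit, for SOX2-ON-specific sites, naive ESC-specific sites, sites in all 12 lists, all β-catenin sites and windows 5000 bp from the members. SOX letters reach 74.1% at the SOX2-ON-specific sites against 44.8% of all sites, and TCF letters 46.6% against 43.5%.

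Letters of the pluripotency partners of SOX2 were at shares near or below those of all sites within 100 bp. The composite of OCT4 with SOX2 (TTGTNATGC) was present at 11 members, 2.61% against 2.41% of all sites, and within 250 bp at 6.89% against 4.04%. The octamer ATGCAAAT was present within 100 bp at 4.04% against 4.45%. The naive factors gave lower values, with the ESRRB letters AAGGTCA at 4.99% against 6.29%, and 15.7% at naive ESC-specific sites, and the KLF letters GGGTGTGG at 0.950% against 2.31%. AP-2 letters (GCCNNNGGC) were found at 7 members, 1.66% against 9.07%. OTX letters (GGATTA) were found at 10.2% against 7.75%, FOXH1 letters (AATNCACA) at 6.89% against 5.13% and GATA letters (AGATAA) at 17.6% against 14.9%. CDX letters (TTTATGG or TTTATTG, 6.41% against 6.59%), TEAD letters (ACATTCC, 5.23% against 5.62%) and the letters AGGTGTGA of brachyury, T (0.950% against 1.67%), were no more frequent. These letter matches are a description and do not show that a factor bound. Median GC content was 43.8% at the members against 47.3% over all sites, and its part in the shares was not tested.

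The SOX letters gathered at the summit. In the 50 bp bin just past it the members held 42.8 SOX matches per 100 sites against 19.0 over all sites, and this fell to between 8.79 and 9.03 at 225 bp on either side, where all sites gave 7.63 and 8.36. TCF letters peaked at the same place, with 17.6 matches per 100 members and 18.3 per 100 of all sites.

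**Figure D2:**
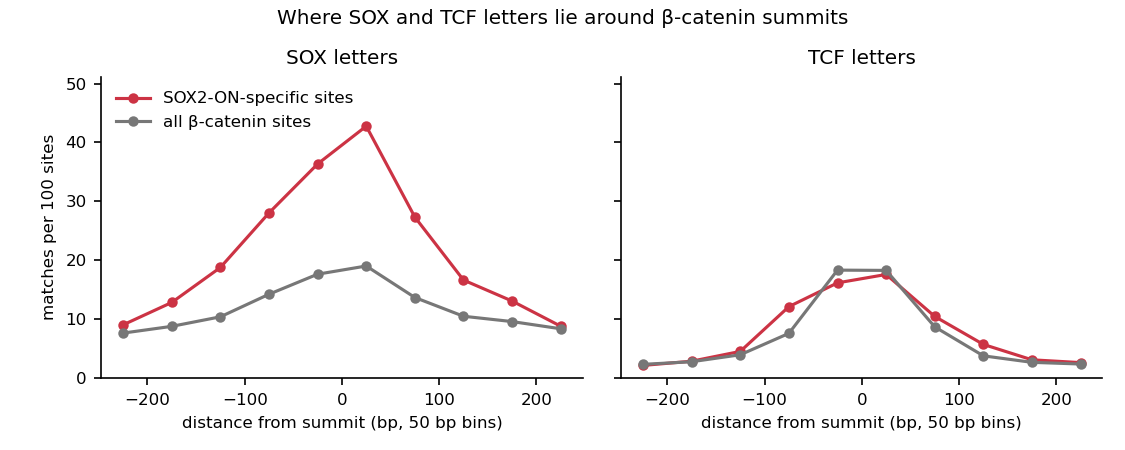
Matches per 100 sites (y axis) in 50 bp bins by distance from the β-catenin summit (x axis, bp), for SOX letters and TCF letters at SOX2-ON-specific sites and at all sites. SOX matches at the members rise to 42.8 per 100 sites beside the summit against 19.0 over all sites, while the TCF profiles are alike near the summit (17.6 and 18.3).

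SOX2 occupied nearly every member in SOX2-ON cells. Lists of unequal length were made comparable by keeping the same number of strongest peaks in every library of a protein, 20000 for SOX2, 4443 for LEF1, 1628 for TCF7L1 and 4134 for TCF7L2. SOX2 peaks covered 95.5%, 94.1% and 93.8% of members in the 3 SOX2-ON libraries (402, 396 and 395 sites). They covered 34.9%, 53.0% and 44.9% in naive ESCs, 43.5%, 24.7% and 27.1% in CEpiLCs, and 18.3%, 22.6% and 25.9% in SOX2-OFF cells. The SOX2-ON libraries lay above all 9 others without overlap.

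The tests used the members' excess, which is their share minus the share of all other β-catenin sites in the same library. It does not take out all of how many sites a library covers. For LEF1, SOX2-ON replicate 2 covered 16.8% of the other sites with an excess of 59.0 points, against 10.2% and 31.8 in replicate 1. For SOX2 the excess was 60.8 percentage points higher in the 3 SOX2-ON libraries than in the 9 others. An exact permutation test, two-sided, gave p = 0.00455 (adjusted over 4 proteins 0.00455). It is the smallest p that 3 against 9 libraries allow. Against single conditions the difference was 65.8 points from SOX2-OFF, 64.8 from CEpiLCs and 51.8 from naive ESCs, each with an exact permutation p = 0.1, the smallest for 3 against 3. The members were selected on β-catenin in the same SOX2-ON cells, so that the tests apply to a selected set. Members were also kept out of most of the 9 other β-catenin lists, and the other sites were not. That choice favours a higher excess in SOX2-ON cells for every protein that binds with β-catenin.

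**Figure D3:**
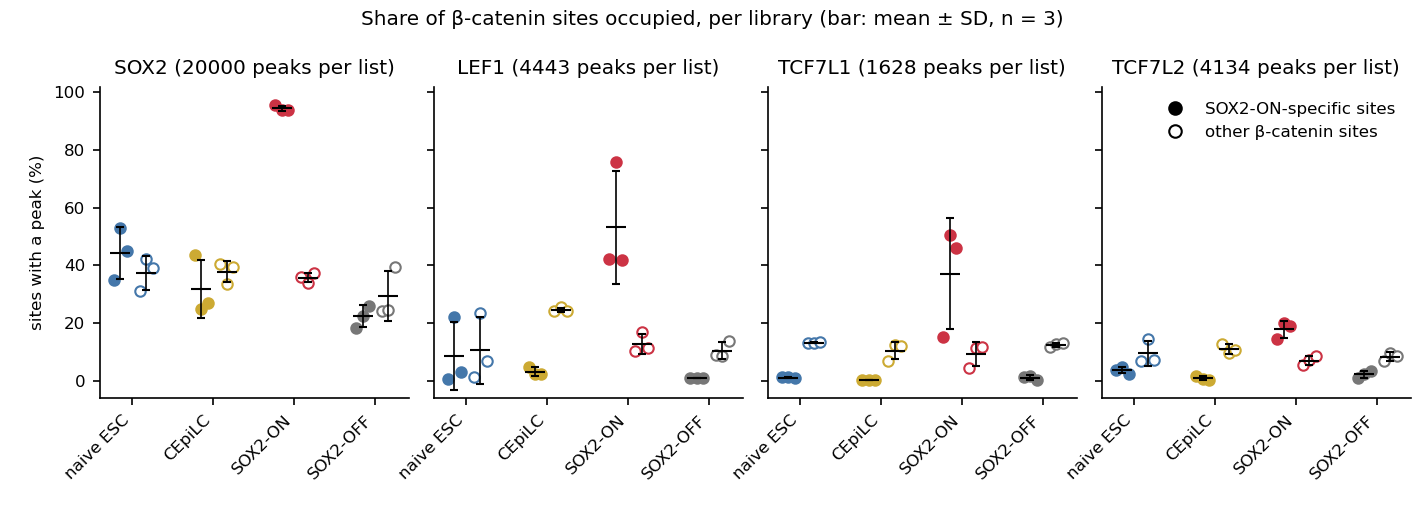
Percent of sites holding a peak (y axis) in each library by protein and condition, on lists of equal length for each protein. Filled points are the 421 members, open points the other β-catenin sites, and lines the mean ± SD of 3 libraries; SOX2 lies at 94.5% ± 0.899 of members in SOX2-ON cells and at 44.3% ± 9.04 or below in the other conditions.

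The 3 TCF/LEF proteins were also listed at more members in SOX2-ON cells than in the other conditions. Their equal-length lists were shorter than those of SOX2, so that coverage cannot be compared between proteins. Full SOX2-ON lists of LEF1 covered 86.9%, 94.5% and 93.6% of members, against 40.1%, 39.8% and 62.8% of the other sites. On lists of equal length, LEF1 peaks were present at 42.0%, 75.8% and 41.8% of members in SOX2-ON cells (177, 319 and 176 sites). In CEpiLCs the LEF1 shares were 4.75%, 2.38% and 2.14%, and 0.713% in each SOX2-OFF library. Naive ESC libraries gave 0.475%, 22.1% and 3.09%, and the first of these held LEF1 peaks at only 1.06% of the other sites, so that this library stood apart. The LEF1 excess in SOX2-ON cells was 51.5 points above the 9 other libraries (exact permutation p = 0.00455).

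TCF7L1 peaks covered 15.0%, 50.4% and 45.8% of members in SOX2-ON cells (63, 212 and 193 sites) and between 0.238% and 1.66% in the 9 other libraries. TCF7L2 covered 14.5%, 20.0% and 19.0%, and between 0.238% and 4.75% in the others. Neither protein overlapped between SOX2-ON and the other libraries. The excess in SOX2-ON cells was 28.0 ± 15.1 points for TCF7L1 and 10.9 ± 1.95 points for TCF7L2 (SD, n = 3). In the other conditions it was negative, from −12.1 to −10.1 points for TCF7L1 and from −10.2 to −5.74 points for TCF7L2 as condition means, since fewer members than other sites held a peak there. The rule favours this negative excess, because members were in at most 1 of the 9 other β-catenin lists and the other sites could be in any. The SOX2-ON excess therefore lay 39.2 and 18.2 points above that of the 9 other libraries (exact permutation p = 0.00455 for each). Set against only the 1302 other sites held by all 3 SOX2-ON β-catenin lists, a comparison added after the data were seen, these differences from the 9 others were 54.7 points for SOX2, 32.5 for LEF1, 23.7 for TCF7L1 and 13.7 for TCF7L2. By condition, the LEF1 difference was 50.2 points from SOX2-OFF, 62.0 from CEpiLCs and 42.4 from naive ESCs, and every pair of conditions for the 3 proteins had an exact permutation p = 0.1. The corresponding values were 39.4, 38.1 and 40.1 points for TCF7L1 and 17.0, 21.1 and 16.7 points for TCF7L2. Coverage in SOX2-ON cells was not particular to the members. At the 410 sites bound in both high-SOX2 conditions, SOX2 covered on average 91.8% (94.5% of members) and LEF1 50.4% (53.2%). TCF7L1 covered 47.5% (37.1%) and TCF7L2 16.9% (17.8%). In naive ESCs, part of the rule for those sites, the shares were 92.7%, 34.3%, 60.7% and 30.5%. At the members they were 44.3%, 8.55%, 1.03% and 3.64%.

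Full lists held TCF7L1 at the members outside SOX2-ON cells as well. Without equal lengths, TCF7L1 peaks covered 87.2%, 71.7% and 84.8% of members in naive ESCs, against 76.0%, 58.1% and 73.4% of the other sites. They covered 42.3%, 99.5% and 100% in SOX2-ON cells, against 11.4%, 53.2% and 78.2%, and 34.2%, 41.8% and 43.5% in SOX2-OFF cells, against 45.9%, 45.9% and 56.1%. In CEpiLCs they covered 0.238%, 27.3% and 12.1%, against 6.94%, 47.2% and 34.5%. The first SOX2-ON list of TCF7L1 was the one with the lower share on both scales.

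High- and low-SOX2 conditions were also set side by side in the engineered and the wild-type line, as SOX2-ON minus SOX2-OFF against naive ESC minus CEpiLC. Naive ESCs and CEpiLCs also differ in medium and differentiation, which cannot be told apart from SOX2 level in that line. The excess differed by 52.9 points for SOX2 (exact permutation p = 0.045, adjusted p = 0.09) and by 41.4 points for TCF7L1 (exact permutation p = 0.035, adjusted p = 0.09). It differed by 30.7 points for LEF1 (exact permutation p = 0.125, adjusted p = 0.125) and by 12.5 points for TCF7L2 (exact permutation p = 0.105, adjusted p = 0.125). None of the 4 passed 0.05 after adjustment. The members had to be in all SOX2-ON lists and in few naive ESC lists, a choice that favours this direction, so that the values describe the members and do not compare the lines. Set against the 1302 other sites, the LEF1 value turned to −2.43 points (exact permutation p = 0.91).

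Read site by site, a share of members had another protein with the same pattern as β-catenin. A SOX2 peak in all 3 SOX2-ON lists and in at most 1 of the 9 others was found at 128 members (30.4%), against 4.92% of all β-catenin sites. For LEF1 the same held at 90 members (21.4% against 1.89%), for TCF7L1 at 44 (10.5% against 0.532%) and for TCF7L2 at 9 (2.14% against 0.222%). SOX2 was in all 3 SOX2-ON lists at 377 members (89.5% against 27.8% of all sites) and in none of them at 6. Of the 4 proteins other than β-catenin, 38 members had none in all 3 SOX2-ON lists of equal length. A further 268 had 1 (63.7% against 23.6% of all sites) and 82 had 2 (19.5% against 3.61%). There were 27 with 3 (6.41% against 1.38%) and 6 with all 4 (1.43% against 0.881%). These counts depend on the list lengths, which differed between proteins. Among all β-catenin sites 70.5% had none.

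Members differed in how β-catenin and the other proteins scaled together. Across the 421 members the median SOX2-ON β-catenin fold had a Spearman rho of 0.292 with the SOX2 fold, 0.495 with LEF1, 0.547 with TCF7L1 and 0.427 with TCF7L2. These are descriptions over sites that share the same libraries and inputs, with absent peaks set to 0. Members with TCF letters had SOX2 peaks in 89.6% of cases on average over the 3 SOX2-ON libraries, and those without TCF letters in 98.7% in each. The median SOX2 fold was 13.2 at the 196 with TCF letters and 20.3 at the 225 without. Members with SOX letters had TCF7L1 peaks in 40.6% and LEF1 peaks in 56.4% on average, against 26.9% and 44.0% at the 109 without.

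**Figure D4:**
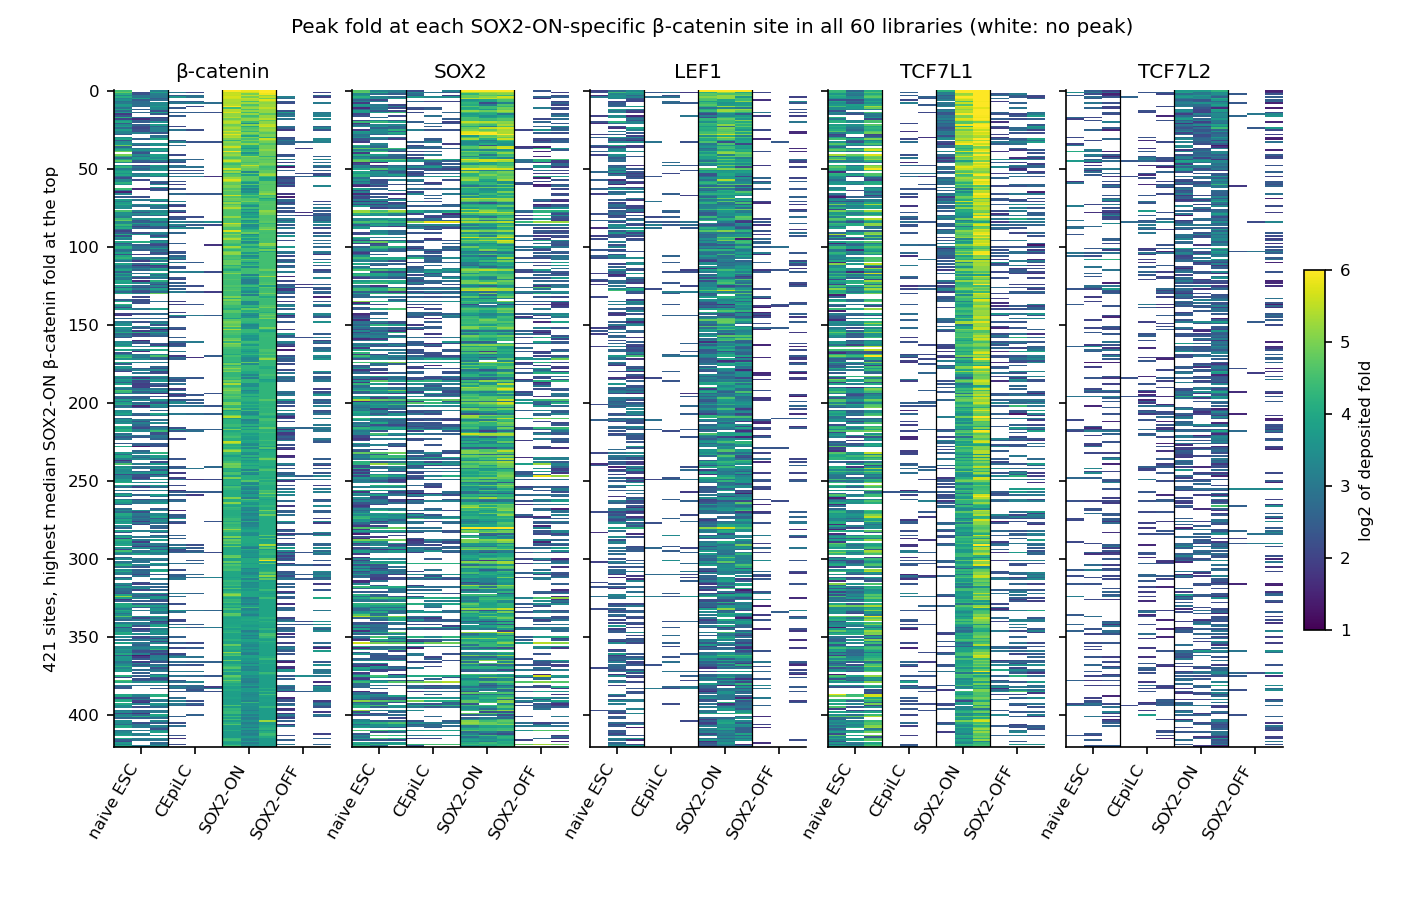
Log2 fold enrichment (colour) of the peaks at the 421 members (rows, sorted by median SOX2-ON β-catenin fold) in 60 libraries (columns, grouped by protein and condition), white where the full list holds no peak. The SOX2 block is filled in SOX2-ON and partly filled in naive ESCs, where the SOX2 peaks were of lower fold.

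The lists were also examined without the limit on length. In naive ESCs the full lists held a β-catenin peak at 82.2%, 64.8% and 71.3% of members, against 71.3%, 60.6% and 63.0% of the other sites. In CEpiLCs they held one at 36.6%, 16.2% and 6.89% of members, against 56.2%, 49.0% and 42.2%, and in SOX2-OFF cells at 52.5%, 4.99% and 40.4%, against 65.6%, 27.3% and 59.4%. The members were thus listed more often than the other sites in naive ESCs and less often in CEpiLCs and SOX2-OFF cells, and the rule had used the strongest peaks of these same lists. No full CEpiLC list held a peak at 262 members, no full SOX2-OFF list at 168 and no full naive ESC list at 45. The median of the 9 other lists with a peak was 4 per member, and 23 members had no peak in any of them and 62 in at most 1. The label "specific" therefore refers to rank among the strongest peaks. The second SOX2-OFF list was the shortest, and the whole of it was used.

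The median β-catenin fold at the members was 21.8, 14.0 and 19.7 in the SOX2-ON libraries. Where a peak was present it was 10.9, 6.77 and 8.51 in naive ESCs, 5.86, 5.86 and 5.26 in CEpiLCs, and 5.69, 5.56 and 6.55 in SOX2-OFF cells. Members ranged from 13.0 to 104, 8.64 to 57.9 and 13.2 to 87.6 in the SOX2-ON libraries, against a last fold kept of 13.0, 8.59 and 13.2, so that the weakest members lay at the limit. Just outside the rule, 93 sites were in all 3 SOX2-ON lists and 2 of the others, and 608 were in 2 of 3 SOX2-ON lists and at most 1 other. Of the 110 members with a single other list, the list was naive ESC at 59, SOX2-OFF at 38 and CEpiLC at 13, and 311 members had none.

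SOX2 fold at the members was also highest in SOX2-ON cells. Its median was 16.9, 16.4 and 19.5 in SOX2-ON cells, 8.66, 8.77 and 7.82 in naive ESCs, 6.02, 5.97 and 6.34 in CEpiLCs and 5.73, 6.47 and 5.86 in SOX2-OFF cells, each over members with a SOX2 peak. Among the members, SOX2 in naive ESCs was listed more often where β-catenin was. The split that follows covered the members only, so that it cannot show whether other β-catenin sites behave alike. SOX2 was counted here on lists of equal length. Of the 231 members with a β-catenin peak in all 3 full naive ESC lists, 147 (63.6%) had SOX2 in at least 2 naive ESC lists. The counts were 36 of 81 (44.4%) with 2 such β-catenin lists, 10 of 64 (15.6%) with 1 and 0 of 45 with none. Full naive ESC lists held weaker SOX2 peaks at some of the 45, such as folds of 3.09 and 3.65 near Gm28363. In SOX2-ON cells SOX2 was in at least 2 lists at 219, 78, 61 and 43 of these 231, 81, 64 and 45 members. SOX2 was thus present in SOX2-ON cells also at members with no naive β-catenin peak. At naive ESC-specific sites SOX2 covered 82.6% ± 11.7 in naive ESCs and 29.7% ± 2.64 in SOX2-ON cells (SD, n = 3).

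The strongest member lay 191909 bp from the start of Pax9, a paired-box regulator of pharyngeal pouch and skeletal development, inside an intron of Slc25a21, a mitochondrial carrier. Its β-catenin fold was 104, 57.9 and 87.6 in SOX2-ON cells, 21.8 and 9.05 in naive ESC replicates 1 and 3, and no peak was listed in the 7 other lists. SOX2 fold there was 90.8, 90.1 and 103 in SOX2-ON cells, 24.9, 9.42 and 8.67 in naive ESCs, 4.56 and 9.31 in CEpiLC replicates 1 and 3 and 5.03 in SOX2-OFF replicate 2. This site had the highest median SOX2-ON fold of all members for β-catenin, SOX2, LEF1 and TCF7L1. LEF1 fold was 76.8, 152 and 92.4 and TCF7L1 fold 18.7, 87.3 and 162 in SOX2-ON cells. In naive ESCs LEF1 fold was 4.09, 7.04 and 10.2 and TCF7L1 fold 20.0, 6.65 and 17.3, and neither had a peak in CEpiLCs or SOX2-OFF cells.

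Near Fgfbp3, which encodes a secreted carrier of fibroblast growth factors, a site 8890 bp from the start had a β-catenin fold of 45.6, 49.2 and 69.3 in SOX2-ON cells and 28.0, 4.58 and 14.5 in naive ESCs. For SOX2 the fold was 40.1, 38.3 and 39.8 in SOX2-ON cells and 26.9, 15.1 and 8.39 in naive ESCs. The Spag9 site, the only promoter among the 10 of highest fold, had β-catenin at 52.2, 31.5 and 46.1 in SOX2-ON cells and at 17.2, 7.67 and 7.96 in naive ESCs. Its SOX2 fold was 27.8, 35.4 and 48.6 in SOX2-ON cells and 18.4, 9.56 and 6.79 in naive ESCs. The other 7 of the 10 lie nearest to Pcca (β-catenin at 48.0, 31.3 and 59.8), B430305J03Rik, Cntnap5b, Mast4, Intu, Nkain2 and Wdr78.

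**Figure D5:**
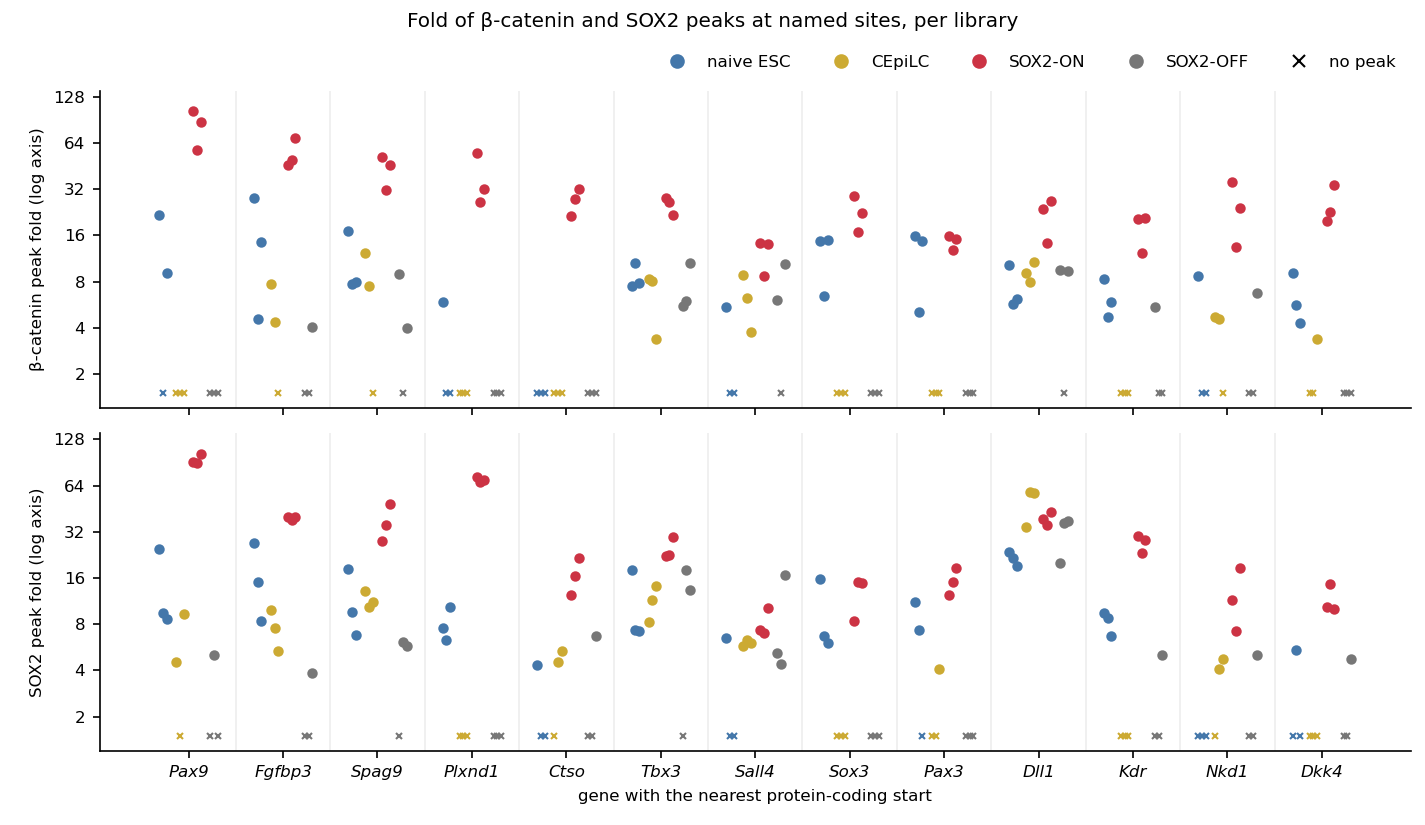
Fold enrichment of the peak in each library (y axis, log scale) for β-catenin and SOX2 at the named sites, grouped by condition, with a cross where no peak was listed. SOX2-ON points of β-catenin lie above those of the other conditions at the sites plotted except Sall4 and Pax3, where the groups overlap.

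Some members had no β-catenin peak in any of the 9 other full lists. The site near Ctso, a cysteine protease, had a β-catenin fold of 21.4, 27.6 and 31.9 in SOX2-ON cells. SOX2 at this site had a fold of 12.5, 16.4 and 21.6 in SOX2-ON cells, 4.33 in naive ESC replicate 1, 4.55 and 5.32 in CEpiLC replicates 2 and 3 and 6.69 in SOX2-OFF replicate 3. Near Lpar6, in an intron of Rb1, the tumour suppressor, β-catenin fold was 26.5, 11.8 and 24.3 in SOX2-ON cells. SOX2 fold there was 40.1, 25.7 and 18.6 in SOX2-ON cells and no SOX2 peak was listed in the 9 other libraries. The other 3 of the 5 strongest such members lay near Rabl2, Pik3c3 and Atg4a, the last in an intron of Col4a6, a basement membrane collagen.

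The next sites were picked for high SOX2 fold in SOX2-ON cells among members whose SOX2 peak was in all 3 SOX2-ON lists and at most 1 other list of equal length, and their full lists could hold weaker SOX2 peaks elsewhere. Near Plxnd1, a semaphorin receptor, SOX2 fold was 72.9, 67.3 and 70.0 in SOX2-ON cells and 7.51, 6.35 and 10.3 in naive ESCs, with no peak in CEpiLCs or SOX2-OFF cells. β-catenin fold there was 54.8, 26.3 and 32.0 in SOX2-ON cells and 5.90 in naive ESC replicate 1. Near Cd180 SOX2 fold was 28.3, 46.7 and 51.6 in SOX2-ON cells and at most 6.45 in any other library. The other 3 of the 5 highest lay near Camk1d (39.2, 17.7 and 48.6), Rsl24d1 (35.6, 29.0 and 38.5) and Pik3c3 (45.0, 42.9 and 36.8).

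Few genes of the developmental lists lay near a member. A gene was counted where its protein-coding start was the nearest and lay within 100 kb, which linked 258 members (61.3% against 73.4% of all sites) to 249 of 21924 protein-coding genes. All β-catenin sites reached 5809 genes. The naive pluripotency list had 1 of 18 genes (Tbx3), the core pluripotency list 1 of 9 (Sall4), the neural list 2 of 25 (Sox3 and Pax3), the mesendoderm and mesoderm list 2 of 20 (Dll1 and Kdr) and the WNT pathway list 2 of 23 (Nkd1 and Dkk4). None was found among 12 primed epiblast, 20 caudal epiblast, 11 FGF and ERK feedback, 9 trophoblast and 6 feeder fibroblast genes. The members near listed genes were 0.238% of all members for the naive list (0.452% of all sites), 0.238% for the core list (0.183%), and 0.475% for the neural (0.246%), mesendoderm and mesoderm (0.309%) and WNT lists (0.714%). With 1 or 2 members per list, these shares do not set the members apart from all sites. Any β-catenin site was near 16, 8, 17, 18 and 22 of the genes of the first 5 lists, and near 9, 16, 11, 4 and 3 of the others.

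Tbx3, a T-box factor of naive pluripotency, had a member 35802 bp away with a β-catenin fold of 27.9, 26.5 and 21.7 in SOX2-ON cells and 7.51, 10.5 and 7.80 in naive ESCs. SOX2 fold there was 22.2, 22.7 and 29.7 in SOX2-ON cells and 17.9, 7.37 and 7.25 in naive ESCs, and no library of another condition exceeded 17.9. Sall4, a zinc-finger factor of the pluripotency network, had a member of low fold, with β-catenin at 14.3, 8.76 and 14.2 in SOX2-ON cells and up to 10.4 elsewhere. The SOX2 fold was at most 10.2 in SOX2-ON cells but 16.8 in SOX2-OFF replicate 3, so that the groups overlapped for both proteins.

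Sox3, a relative of SOX2 in neural progenitors, had a member 72357 bp away with β-catenin at 28.9, 16.9 and 22.3 in SOX2-ON cells and 14.7, 6.48 and 15.0 in naive ESCs. SOX2 fold there overlapped, with 8.46, 15.2 and 14.8 in SOX2-ON cells and 15.7, 6.72 and 6.03 in naive ESCs. Pax3, a dorsal neural and paraxial mesoderm regulator, had a member in its own intron with β-catenin at 15.8, 12.9 and 15.1 in SOX2-ON cells and 16.0, 5.08 and 14.7 in naive ESCs. Its SOX2 fold was 12.5, 15.2 and 18.6 in SOX2-ON cells and at most 11.1 elsewhere.

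Dll1, a Notch ligand of the primitive streak and somites, had a member, 4891 bp from its start, where SOX2 did not follow β-catenin. β-catenin fold was 23.7, 14.3 and 26.8 in SOX2-ON cells and at most 10.8 elsewhere. SOX2 fold was 38.9, 35.5 and 43.2 in SOX2-ON cells, 34.4, 58.1 and 57.1 in CEpiLCs, 23.8, 21.5 and 19.1 in naive ESCs and 20.0, 36.4 and 37.7 in SOX2-OFF cells. The SOX2-ON range overlapped those of CEpiLCs and SOX2-OFF cells. Kdr, the VEGF receptor of early mesoderm, had a member in its own intron with SOX2 at 30.1, 23.4 and 28.2 in SOX2-ON cells and at most 9.41 elsewhere, and with LEF1 at 13.1, 26.7 and 25.1 in SOX2-ON cells.

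Nkd1, a feedback inhibitor of WNT signalling, had a member 8864 bp from its start with β-catenin at 35.8, 13.4 and 23.9 in SOX2-ON cells and at most 8.75 elsewhere. LEF1 fold there was at least 8.53 in SOX2-ON cells and at most 6.97 elsewhere. Dkk4, a secreted inhibitor of WNT receptors, had a member 6437 bp from its start with β-catenin at 19.9, 22.8 and 34.0 in SOX2-ON cells and at most 9.10 elsewhere. Its SOX2 fold was 10.4, 14.7 and 10.1 in SOX2-ON cells and at most 5.44 elsewhere.

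Members lay far from gene starts. Promoters, within 1000 bp of a start, held 9 members (2.14% against 6.28% of all sites), exons 6, introns 192 (45.6%) and intergenic sequence 214 (50.8%). The median distance to the nearest protein-coding start was 68331 bp against 33713 bp, and 38.7% lay over 100 kb away against 26.6%. The promoter members belonged to Jag1, Gm8439, Ptprz1, Gm10203, Adam5, Smad3, Spag9, Pdzrn4 and Vit. Jag1 encodes a Notch ligand and Smad3 a transducer of TGF-β and activin signals, and these were named after their positions were seen. Median width was 679 bp against 530 bp.

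In all, 391 genes were nearest to a member, of which 25 were nearest to at least 2. Cntnap5b, a neuronal adhesion protein, Inpp4b, a phosphoinositide phosphatase, Nr2f2, a nuclear receptor, Tox3 and Zfp608 were nearest to 3 each, with 7, 6, 9, 6 and 23 β-catenin sites in all. The 3 Inpp4b members lay within its introns and had SOX2-ON SOX2 folds between 5.79 and 16.1. At Tox3 the 3 members lay between 103359 and 278698 bp from the start with SOX2-ON SOX2 folds between 11.3 and 36.5. Neighbouring members on a chromosome were a median of 3.87e+06 bp apart, and 14 of 401 neighbouring pairs lay within 100 kb.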

How the data were processed

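Peak lists from 60 ChIP–seq libraries of mouse cells were analysed. Per the submitters' processing notes the authors called peaks with MACS2 on mm10 for each library, and the deposited lists give each peak's fold enrichment over the local background, −log10 p-value and −log10 q-value. The lists passed the authors' q-value threshold of 0.05 and hold no read counts, so that sequencing depth is unknown here and no counting interval could be given. Lists ran from 1628 to 991719 peaks (β-catenin, 3423 to 461476). Ranking used the deposited fold. No per-sample column was left unmapped (0).

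Sites were built from the 3423 β-catenin peaks of highest fold per list, merged at 1 bp, and a site counted as occupied by another protein where that library's equal-length list overlapped it by 1 bp. Occupancy per library was compared by exact permutation tests over libraries, two-sided, with Benjamini-Hochberg adjustment within each family (4 proteins, or 12 pairs of conditions), since the study's replicates came from separate experiments. Letters were read from GRCm38 (mm10) within 100 bp of a β-catenin summit. For members this was the summit of the strongest SOX2-ON peak, and for all other sites that of the strongest peak in any β-catenin list. Sites took the nearest protein-coding start of the matching annotation. Sites were named as the 10 of highest β-catenin fold, those within 100 kb of a listed gene, the 5 strongest without a β-catenin peak in any other full list, the 5 strongest for SOX2 among those with a SOX2 peak in at most 1 other list, and genes nearest to at least 3. The members, gene lists and letters were chosen with earlier results of these data known. Alternatives varied the list length, the overlap, the q-value limit, the window and the libraries used. Calculations were tested on simulated data and used Python 3.11.15, NumPy 2.4.6, pandas 2.3.3, SciPy 1.17.1, pysam 0.24.0, samtools 1.23.1 and matplotlib 3.10.9.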

Additional observations from a re-analysis of the deposited data

Results flagged for a closer look

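For SOX2 the excess occupancy of the members differed between the lines, SOX2-ON minus SOX2-OFF against naive ESC minus CEpiLC, by 52.9 percentage points, and for TCF7L1 by 41.4 points. Both had an exact permutation p under 0.05 before adjustment (0.045 and 0.035) and 0.09 after adjustment over 4 proteins. The choice of members, in all SOX2-ON and few naive ESC β-catenin lists, favours this direction. Medium and differentiation also differ between naive ESCs and CEpiLCs, so that SOX2 level is not the only difference there.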

How the results depend on the processing

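The number of members was 421 and became 250 with 2000 peaks per list, 657 with 10000 and 1822 with all peaks. Leaving out 1 replicate number gave between 669 and 811, because fewer lists had to meet the rule. Leaving out SOX2-OFF replicate 2, the shortest list, gave 442. The excess in SOX2-ON over the 9 other libraries kept its direction and its side of 0.05 under each of 46 alternatives, at 32.7 to 61.5 points for SOX2, 29.0 to 56.2 for LEF1, 23.3 to 47.8 for TCF7L1 and 2.84 to 42.3 for TCF7L2 (adjusted p 0.00455 to 0.0357, exact permutation tests). The 12 pairs of conditions kept their direction under 138 alternatives, with tests that cannot reach 0.05, at 31.8 to 66.8 points for SOX2, 17.7 to 69.9 for LEF1, 17.0 to 49.4 for TCF7L1 and 2.57 to 48.2 for TCF7L2. The lowest LEF1 value (against naive ESCs, 42.4 as reported; exact permutation p = 0.3) and the lowest TCF7L1 value (against CEpiLCs, 38.1 as reported) came from comparing with the 1302 other sites described next. A further comparison used the 1302 other sites in all 3 SOX2-ON lists, chosen after the data were seen. These sites were in more than 1 of the 9 other β-catenin lists, so that both sets were selected on β-catenin. The difference between lines was then −2.43 points for LEF1 and 37.1 for TCF7L1 (exact permutation p = 0.005, adjusted p = 0.02), and the cause was not tested. With the replicate number as a block the SOX2-ON excess had an exact permutation p = 0.0156, the smallest of 64 assignments, and pairs 0.25. Whether the numbers pair the samples was not settled. At most 1 of 18 same-number pairs per protein correlated over 0.1. Their median correlation was nonetheless above that of different-number pairs for every protein (for SOX2, 0.0174 against −0.0102). The lists hold no depth, which limits what an absent peak can show.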

Other observations

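Chromosome 6 held 47 members (11.2% against 7.02% of all sites, and 13.0% of SOX2-OFF-specific sites), and chromosome X held 24 (5.70% against 3.16%). No member overlapped or lay within 100 kb of Sox2, Hprt or the Rosa26 locus, where the endogenous gene, the transgene and rtTA reside. Tandem arrays of a 6 to 40 bp unit with at least 3 copies, looked for after the Pax9 window was seen, were found in the windows of 2 members (Pax9 and Plxnd1, 0.475%) and of 89 of all 12601 sites (0.706%). Of the 10 arrays in all sites that contained the core ATTGT or TTTGT, 2 were at members.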
